A study of Mus musculus with 6 samples.

Results

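The Hox genes encode homeodomain transcription factors and lie in 4 clusters, HoxA, HoxB, HoxC and HoxD. Genes at matching places in different clusters form a paralog group, numbered from 1 at the 3′ end of a cluster to 13 at its 5′ end. In the embryo the 3′ genes come on early and anteriorly and the 5′ genes late and posteriorly, and together they give each level of the body axis its identity. In embryonic stem cells the clusters are held silent or nearly so by Polycomb complexes, at promoters that also carry Trithorax-type histone marks.

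The members were the probe sets whose single gene symbol was a Hox gene of 1 of these clusters, with 1 probe set for each gene. They were 37 of 19938 genes measured: 10 in HoxA and 9 in each of HoxB, HoxC and HoxD. Hoxb8 was represented only by a probe set shared with Hoxb7, which measured between 23.1 and 28.9 in the 6 arrays and was left out. Each of the 37 genes had exactly 1 probe set, so no choice between probe sets affected them.

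The cells were mouse embryonic stem cells of 3 lines made by transfer of chromosomes: ZM-1, ♂M-1 and ♂M-3. Each had 2 biological repeats on 2 arrays. The labels do not spell out the line names and give no strain, sex or passage. All lines were grown without a feeder layer on gelatin, in LIF with PD0325901, which blocks MEK, and CHIR99021, which blocks GSK3β, the medium that holds mouse cells in the naive state. RNA was hybridised to a whole-transcript array, and the study asked how expression profiles differed between lines. Each line is 1 line only, so the p-values measure the spread between repeats of a line and not that between lines of a kind.

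The arrays were close to each other in scale, with a median intensity of 67.2 to 71.3 and a lower quartile of 23.8 to 25.1 over all probe sets. Checked against the label of stem cells, the 8 pluripotency markers summed to between 19643 and 22627 in the 6 arrays. In no line did any of them lie below the lower quartile in both arrays. The lowest of them, Zfp42, had its smallest line mean, 272, in ZM-1. Of the 8, 3 were called higher in ♂M-3 than in ZM-1, where 8.66% of all genes were. Probe sets differ in how strongly they bind, so levels are compared between lines for 1 gene at a time and not between genes.

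Embedded in the clusters are microRNA genes that target Hox transcripts, and their mature sequences are shown because they tie the clusters to each other. Mir196a-1 lies beside Hoxb9, Mir196a-2 between Hoxc10 and Hoxc9, Mir196b between Hoxa9 and Hoxa10, Mir10a beside Hoxb4, and Mir10b beside Hoxd4. The seed, bases 2 to 8, is in capitals, and sequences are from RefSeq on GRCm38.p6, written 5′ to 3′.
miR-196a-5p: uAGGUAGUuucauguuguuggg
miR-196b-5p: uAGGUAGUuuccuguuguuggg
miR-10a-5p: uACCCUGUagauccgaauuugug
miR-10b-5p: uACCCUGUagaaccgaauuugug
The miR-196 pair share their seed and differ at 1 base, A12C from miR-196a to miR-196b, counted from the 5′ end. The miR-10 pair share another seed and also differ at 1 base, U12A from miR-10a to miR-10b.

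Of the Hox genes whose values differed between lines, Hoxa5 had an entry in the promoter table, as did 21 of the 37 members in all. The 250 bases before its start, chr6:52204588-52204837 on the minus strand of GRCm38.p6, are shown with each CG dinucleotide in capitals.
Hoxa5: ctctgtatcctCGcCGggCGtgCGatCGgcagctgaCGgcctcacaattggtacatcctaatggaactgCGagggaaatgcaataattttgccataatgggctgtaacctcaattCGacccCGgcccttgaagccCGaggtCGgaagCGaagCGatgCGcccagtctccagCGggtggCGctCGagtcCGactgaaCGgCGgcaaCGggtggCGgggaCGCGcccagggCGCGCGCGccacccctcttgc
This window held 28 CG dinucleotides and 63.6% G and C. Over the 23 windows of the 21 Hox genes, the count ran from 2 at Hoxd11 to 35 at Hoxa13, with a median of 13. All 32851 promoter windows of the same length had a median of 6, and 18 of the 23 Hox windows lay above that value. CG-rich, unmethylated promoters are the usual seat of Polycomb complexes in stem cells. The motif TATAAA, on either strand, was present in 3 of the 23 Hox windows and in 12.4% of all windows.

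The Hox genes gave weak signals in all lines. Their intensities ran from 19.4 for Hoxa3 in a ♂M-1 array to 223 for Hoxc12 in a ♂M-3 array, with a median of 43.6 over all genes and arrays. In all 6 arrays, 6 genes lay above the array's median (Hoxa4, Hoxb1, Hoxb3, Hoxb9, Hoxc8 and Hoxc12), and 1, Hoxa3, lay below its lower quartile. No background value was used, and a weak signal does not show that a gene was transcribed. Repeats of a line differed by a median of 0.10 log2 units per Hox gene for ♂M-1 and for ♂M-3, and by 0.09 for ZM-1. The corresponding medians over all genes were 0.09, 0.08 and 0.10. The least reproducible members were Hoxd4 in ♂M-1, with 0.30 log2 units between repeats, Hoxd1 in ♂M-3, with 0.39, and Hoxd13 in ZM-1, with 0.34.

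**Figure D1:**
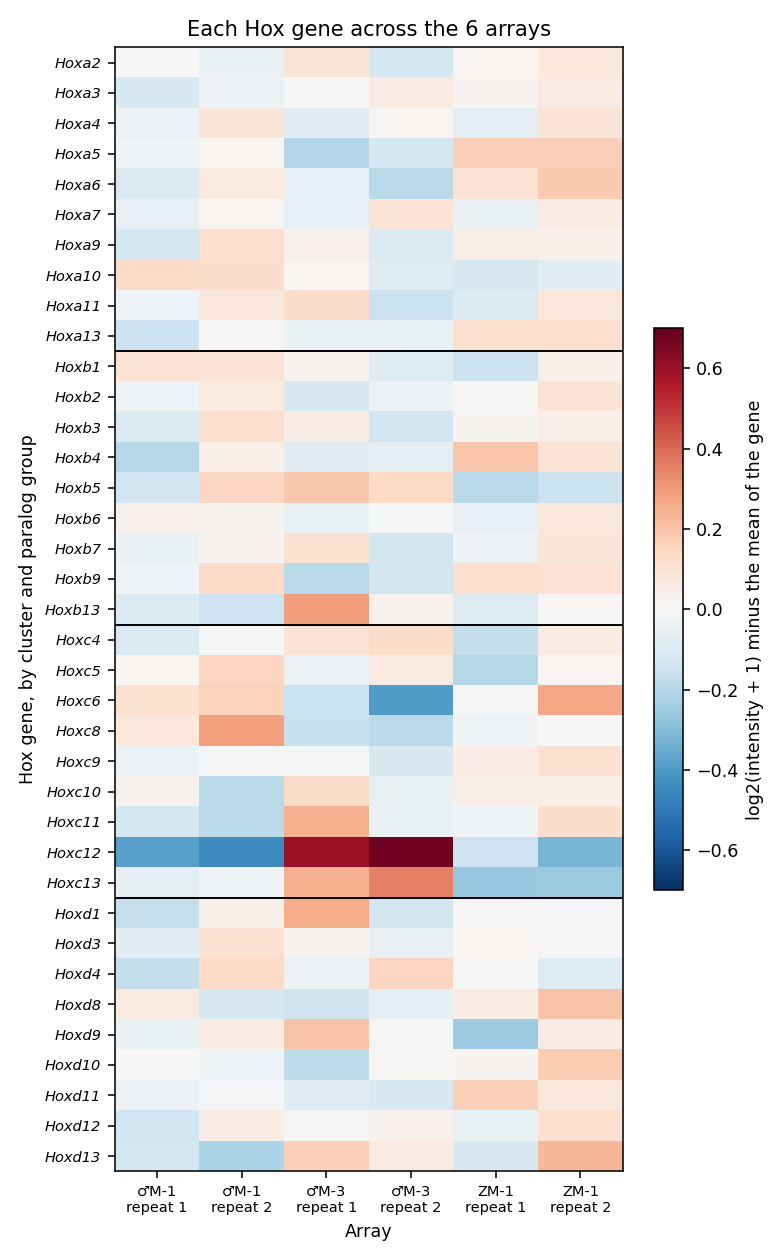
Each row is 1 of the 37 Hox genes, ordered by cluster and paralog group, and each column is 1 of the 6 arrays. Colour gives log2(intensity + 1) minus the mean of that gene, and the pair of rows that stands out is Hoxc12 and Hoxc13, high in both ♂M-3 arrays.

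Most Hox genes were not called between the lines, and neither were most of all genes measured. Of all genes, 4.41% were called between ♂M-1 and ZM-1, 15.9% between ♂M-3 and ZM-1 and 6.54% between ♂M-1 and ♂M-3. The share of all genes called in at least 1 pair was not counted. With limma over all genes and Benjamini-Hochberg adjustment, 31 of 37 Hox genes passed the threshold of 0.05 between no pair of lines, and 6 passed between at least 1 pair: Hoxa5, Hoxb5, Hoxc6, Hoxc8, Hoxc12 and Hoxc13. All 6 involved ♂M-3, which was compared with ZM-1 and with ♂M-1, so its arrays enter both counts.

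Between ♂M-1 and ZM-1, 0 of 37 Hox genes passed the limma test, against 4.41% of all genes. At an unadjusted p under 0.05 there were 5, against 3981 of all 19938 genes. The log2 differences ran from -0.24 for Hoxd13 to 0.22 for Hoxa10, with a median of -0.046, against -0.0082 over all genes. The 95% confidence intervals of the 37 differences all lay between -0.49 and 0.40, so a 2-fold change in intensity was outside the interval of every measured member. With weak signals and no background value, the intervals do not give the same limit for the amount of transcript.

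Between ♂M-3 and ZM-1, 5 of 37 (13.5%) passed, against 15.9% of all genes. An unadjusted p under 0.05 was reached by 10, against 5980 of all 19938 genes. Hoxc12, Hoxc13 and Hoxb5 were higher in ♂M-3, where 8.66% of all genes were called higher, and Hoxc6 and Hoxa5 lower, where 7.2% were. After median centring of the arrays the split over all genes was 13.2% higher and 5.42% lower. The median over the members was -0.024 and over all genes 0.0021. The intervals of the 32 members that did not pass lay between -0.47 and 0.46.

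Between ♂M-1 and ♂M-3, 3 of 37 (8.11%) passed, against 6.54% of all genes. Hoxc8 was higher in ♂M-1, as were 3.22% of all genes, and Hoxc12 and Hoxc13 were lower, as were 3.32%. The median was 0.032, against -0.017 over all genes, and the 34 members that did not pass had intervals between -0.54 and 0.66. In both comparisons the share of Hox genes called was near that of all genes. An unadjusted p under 0.05 was reached by 8 members between ♂M-1 and ♂M-3. The unadjusted counts below have as background 3981 of all genes between ♂M-1 and ZM-1, 5980 between ♂M-3 and ZM-1 and 3943 here. An absolute log2 difference of 1 was reached by 1 member, Hoxc12, between ♂M-1 and ♂M-3.

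**Figure D2:**
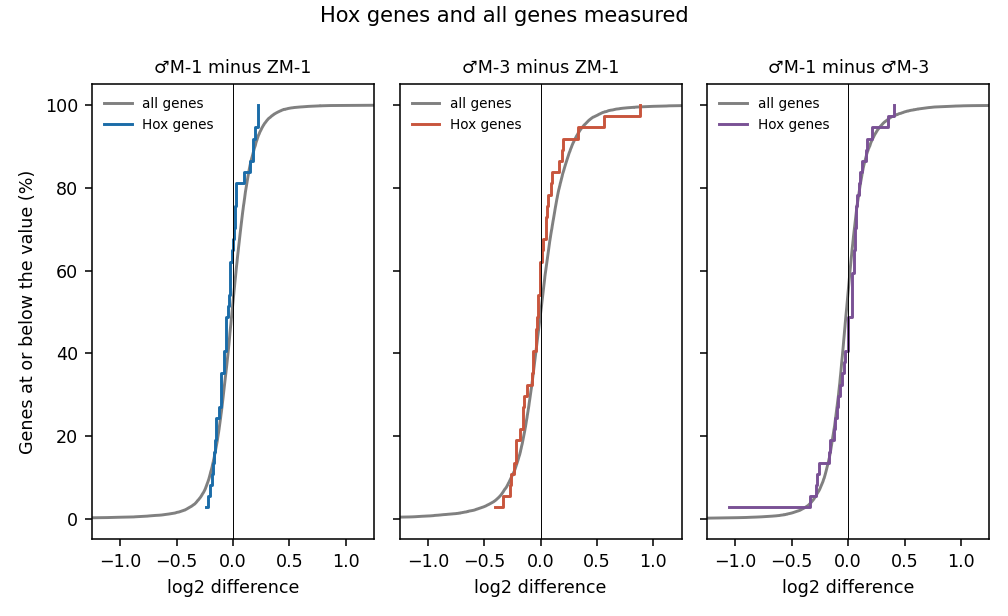
For each pair of lines, the vertical axis gives the percentage of genes with a log2 difference at or below the value on the horizontal axis, in grey for all 19938 genes and in colour for the 37 Hox genes. The coloured steps farthest from 0 are Hoxc12, at 0.88 for ♂M-3 minus ZM-1 and at -1.05 for ♂M-1 minus ♂M-3. Below 0 lay 25 of the 37 Hox genes for ♂M-1 minus ZM-1, against 10456 of all 19938 genes. For ♂M-3 minus ZM-1 the counts were 23 and 9873, and for ♂M-1 minus ♂M-3 17 and 10976.

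The HoxC cluster held 4 of the 6 genes. In each pair with ♂M-3, 3 of 9 HoxC genes passed, beside 15.9% of all genes against ZM-1 and 6.54% against ♂M-1. Hoxc12 and Hoxc13, neighbours at the 5′ end, were called higher in ♂M-3 in both pairs. In the middle, Hoxc6 was called lower in ♂M-3 against ZM-1 only, and Hoxc8 against ♂M-1 only. The calls of Hoxc6 and Hoxc8 were lost under several settings. Hoxc12 is a posterior paralog of the tail and hindlimb region and of hair follicles. Its intensity was 106 and 102 in ♂M-1, 211 and 223 in ♂M-3, and 125 and 111 in ZM-1. Both ♂M-3 arrays stood well above the other 4. It was 1.84-fold higher in ♂M-3 than in ZM-1 (log2 difference 0.88 ± 0.086 SE, adjusted p = 0.000284) and 2.08-fold lower in ♂M-1 than in ♂M-3 (-1.05 ± 0.086 SE, adjusted p = 0.000287). ♂M-1 and ZM-1 did not differ beyond the test (-0.18, adjusted p = 0.294).

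Hoxc13, next to it at the end of the cluster, controls keratin genes of hair and nails. It measured 60.0 and 61.9 in ♂M-1, 74.7 and 80.5 in ♂M-3, and 52.1 and 52.3 in ZM-1. The ♂M-3 arrays were again the highest, and the 3 lines did not overlap. The difference between ♂M-3 and ZM-1 was 1.48-fold (log2 0.56 ± 0.076 SE, adjusted p = 0.00175). Between ♂M-1 and ♂M-3 it was 1.27-fold (-0.34 ± 0.076 SE, adjusted p = 0.0314), and that call depended on all 4 arrays. Its adjusted p was 0.136 or 0.141 when ♂M-1 replicate 1 or 2 was left out, 0.0914 or 0.219 when ♂M-3 replicate 1 or 2 was, and 0.116 in a fit over all probe sets. Against ZM-1, ♂M-1 had a log2 difference of 0.22 (adjusted p = 0.155).

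The rise at the 5′ end did not extend past these genes at a size the test could call. Hoxc11, a hindlimb and kidney paralog and the next measured Hox gene, measured 36.4 and 29.5 in ♂M-3 and 30.2 and 33.4 in ZM-1, and the arrays overlapped (log2 difference 0.047, adjusted p = 0.815). Its difference between ♂M-1 and ♂M-3 was -0.25 (adjusted p = 0.222), and between ♂M-1 and ZM-1 -0.21 (adjusted p = 0.323). Hoxc10 and Hoxc9 had log2 differences of -0.0057 and -0.14 between ♂M-3 and ZM-1. On the other side of Hoxc13, the nearest measured genes outside the cluster were Calcoco1, at -0.15 (adjusted p = 0.326), and Mir688, at -0.16 (adjusted p = 0.373).

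Hoxc6 and Hoxc8 pattern the thoracic region. Hoxc6 measured 65.7 and 68.1 in ♂M-1, 54.7 and 46.2 in ♂M-3, and 61.0 and 73.7 in ZM-1. The ♂M-3 arrays were the lowest, although the repeats of ♂M-3 and of ZM-1 were themselves far apart. The difference between ♂M-3 and ZM-1 was -0.41 ± 0.11 SE on the log2 scale (adjusted p = 0.0384). This call did not survive a range of changes: adjusted p was 0.0528 after quantile normalization, 0.123 over all probe sets, 0.0664 on the 4 arrays of these lines alone or without either ♂M-1 array, 0.0579 with a replicate block, 0.232 without ♂M-3 replicate 2 and 0.174 without ZM-1 replicate 2. Between ♂M-1 and ♂M-3 it had nearly the same size, 0.41, with adjusted p = 0.0702, and it passed without either ZM-1 array or on the 4 arrays of these lines alone (0.0355) and among genes above the 25th percentile (0.0462).

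Hoxc8 measured 106 and 123 in ♂M-1, 90.4 and 88.9 in ♂M-3, and 99.2 and 101 in ZM-1. Here the ♂M-1 arrays were the highest and the ♂M-3 arrays the lowest. Between ♂M-1 and ♂M-3 the log2 difference was 0.35 ± 0.088 SE (adjusted p = 0.0484). The call was lost after quantile normalization (0.0536) or median centring (0.0505), over all probe sets (0.166), with a replicate block (0.0638), without ♂M-1 replicate 2 (0.292) and without ♂M-3 replicate 1 (0.182) or 2 (0.226). Between ♂M-3 and ZM-1 it was -0.16 (adjusted p = 0.270). Of the remaining HoxC genes, Hoxc4 and Hoxc5 had log2 differences of 0.16 and 0.11 between ♂M-3 and ZM-1, and neither passed in any pair.

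**Figure D3:**
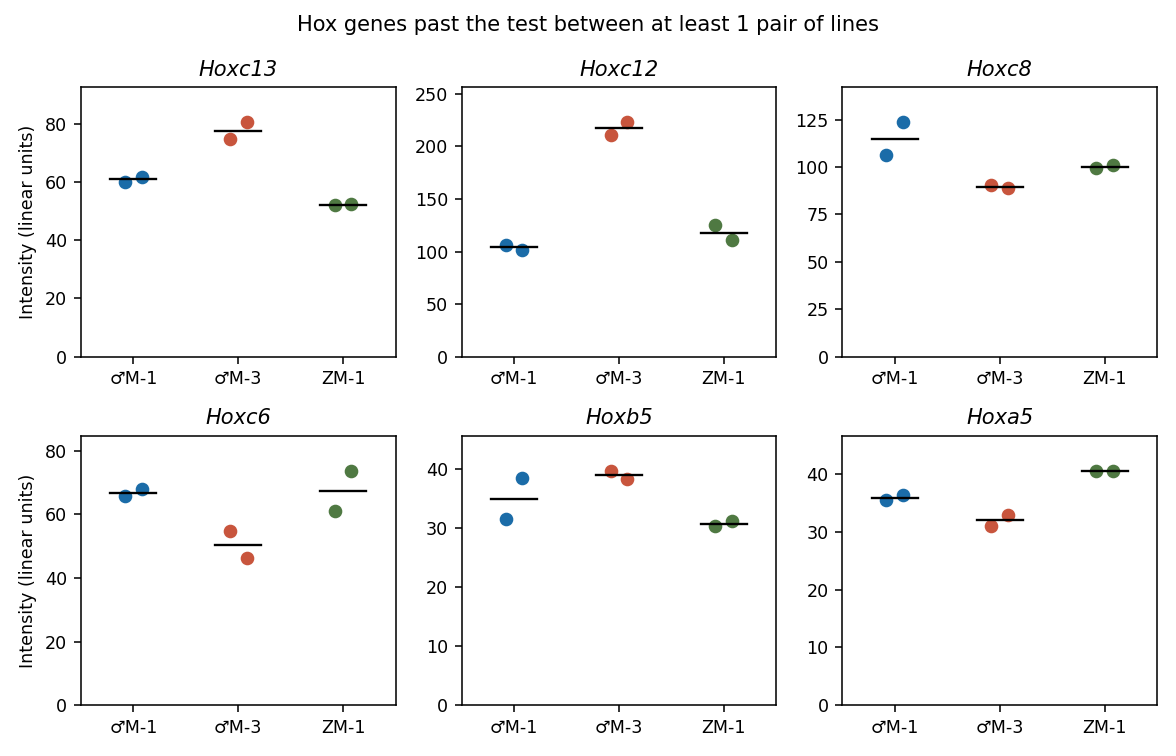
Points are the 2 arrays of each line and black bars their mean, with intensity on a linear axis from 0, for the 6 Hox genes past the test in at least 1 pair. The ♂M-3 points lie highest for Hoxc12 (211 and 223) and Hoxc13 (74.7 and 80.5) and lowest for Hoxc6, Hoxc8 and Hoxa5.

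In HoxA and HoxB, paralog group 5 held the single called gene of each cluster, in opposite directions. Hoxa5, which acts in the lung and the cervical and thoracic skeleton, measured 35.4 and 36.3 in ♂M-1, 31.0 and 32.9 in ♂M-3, and 40.5 and 40.5 in ZM-1. The 3 lines did not overlap, and ♂M-3 was the lowest. It was 1.26-fold lower in ♂M-3 than in ZM-1 (log2 difference -0.33 ± 0.075 SE, adjusted p = 0.0175). Each array of these lines was needed for the call: adjusted p was 0.120 or 0.0616 with ♂M-3 replicate 1 or 2 left out, 0.0515 or 0.0576 with ZM-1 replicate 1 or 2 left out, and 0.0566 over all probe sets.

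Hoxb5, a factor of the enteric neural crest and of blood stem cells, measured 31.6 and 38.4 in ♂M-1, 39.6 and 38.3 in ♂M-3, and 30.3 and 31.2 in ZM-1. ♂M-3 lay above ZM-1, and the ♂M-1 arrays spread over most of the gap. The difference between ♂M-3 and ZM-1 was 0.33 ± 0.097 SE (adjusted p = 0.0488). It was lost with a larger added constant of 16 (0.0567), over all probe sets (0.131), with a replicate block (0.0581), without ♂M-3 replicate 1 (0.195) or 2 (0.146) and without ZM-1 replicate 1 (0.130) or 2 (0.105). Hoxc5, the third member of the group, had a difference of 0.11 (adjusted p = 0.518), and whether the paralogs differed from each other was not tested.

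Among the other HoxA genes, Hoxa10, a gene of the uterus and hindlimb, measured 53.5 and 53.1 in ♂M-1 and 45.0 and 46.2 in ZM-1. These arrays did not overlap, but the log2 difference of 0.22 did not pass (adjusted p = 0.149). Hoxa6 measured -0.27 between ♂M-3 and ZM-1 (adjusted p = 0.0776). In HoxB, Hoxb9, a thoracic gene, measured 104 and 109 in ♂M-3 and 129 and 128 in ZM-1. Its log2 difference of -0.27 missed the threshold (adjusted p = 0.0554) and passed with an added constant of 16 (0.0362) or among genes above the 25th percentile (0.0367). Hoxb4, used to expand blood stem cells, measured 43.7 and 52.0 in ♂M-1 and 57.6 and 53.9 in ZM-1 (log2 difference -0.22, adjusted p = 0.239).

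HoxD had 0 of 9 members past the test in each pair of lines, by limma. Over all genes, 15.9% passed between ♂M-3 and ZM-1, 6.54% between ♂M-1 and ♂M-3 and 4.41% between ♂M-1 and ZM-1. At an unadjusted p under 0.05 there were 2 when ♂M-3 was set against ZM-1, 1 when ♂M-1 was set against ♂M-3, and 0 in the remaining pair. Over all 19938 genes the counts were 5980, 3943 and 3981 in the same order. Hoxd13, a digit gene, had the largest difference of the cluster, -0.29 between ♂M-1 and ♂M-3 (adjusted p = 0.192). It measured 39.5 and 36.9 in ♂M-1, 48.6 and 45.1 in ♂M-3, and 40.1 and 50.8 in ZM-1, so the ZM-1 repeats spanned most of the range of the other lines. Between ♂M-3 and ZM-1 the extremes of HoxD were Hoxd8 at -0.23 and Hoxd9 at 0.19.

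**Figure D4:**
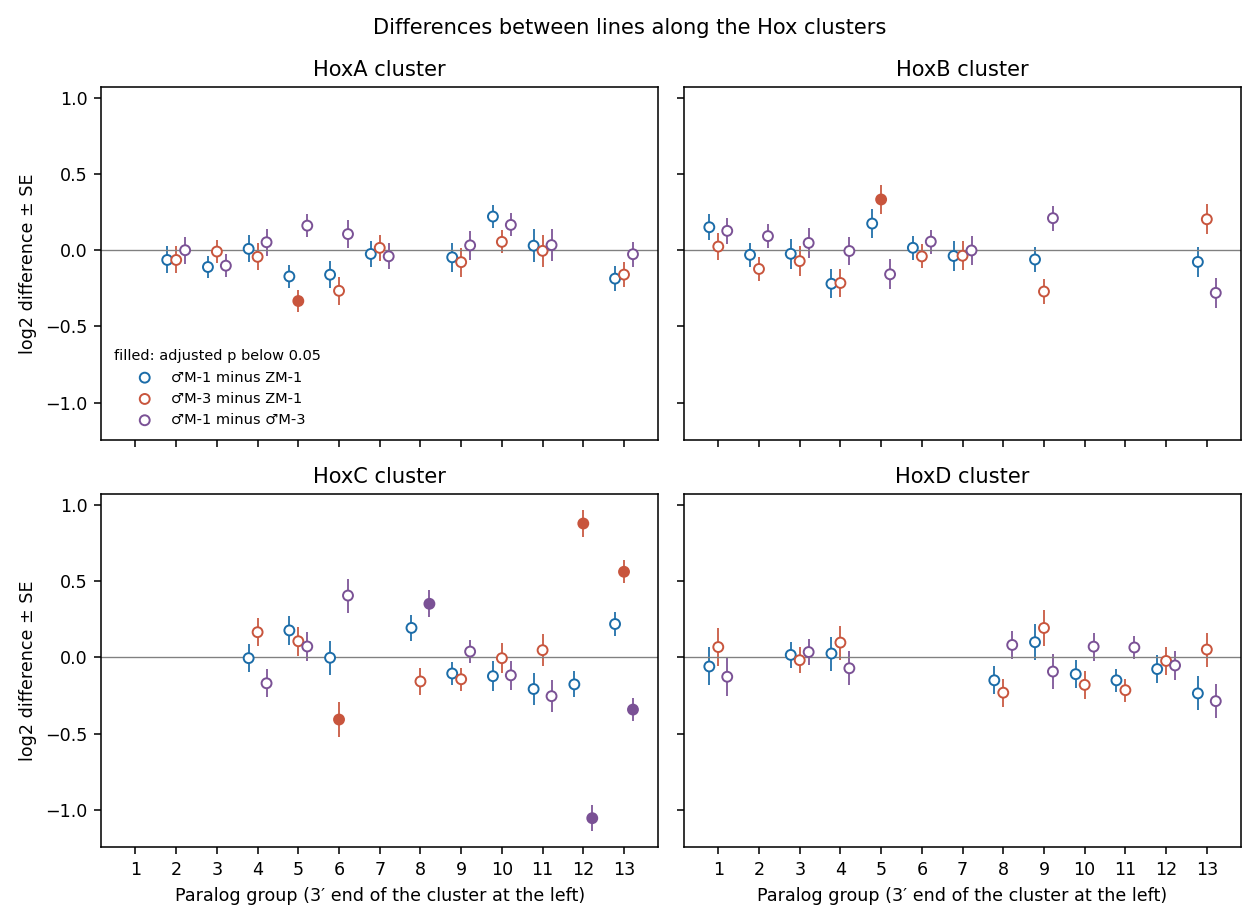
Each panel is 1 cluster, with paralog group on the horizontal axis and the log2 difference ± SE between lines on the vertical axis. Filled points have adjusted p below 0.05, and those past 0.5 in size are Hoxc12 (0.88 and -1.05) and Hoxc13 (0.56).

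Read by cluster, the median difference stayed near 0. Between ♂M-1 and ZM-1 the medians were -0.055 in HoxA, -0.030 in HoxB, -0.0053 in HoxC and -0.077 in HoxD. Between ♂M-3 and ZM-1 they were -0.054, -0.040, 0.047 and -0.019, and between ♂M-1 and ♂M-3 0.033, 0.048, -0.12 and -0.053. The spread between repeats of a cluster's mean log2 level was 0.043 to 0.060 (pooled SD), about the size of most of these medians. In HoxC the 9 genes ran from -0.41 to 0.88 between ♂M-3 and ZM-1.

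Read by position, none of the 7 anterior genes, paralog groups 1 to 3 at the 3′ end, passed in any pair. They had differences of -0.12 to 0.067 between ♂M-3 and ZM-1, and 0 of 7 had an unadjusted p under 0.05 in any pair. Of the 14 central genes, groups 4 to 8, 3 passed between ♂M-3 and ZM-1, 1 higher and 2 lower, with a median of -0.042. Of the 16 posterior genes, groups 9 to 13, 2 passed, both higher and both in HoxC, with a median of -0.0049. The background of 15.9% stands beside these counts, which were not compared with each other by a test. In group 13, the differences between ♂M-3 and ZM-1 were -0.16 for Hoxa13, 0.20 for Hoxb13, 0.56 for Hoxc13 and 0.051 for Hoxd13. In group 12, Hoxd12 was at -0.024 and Hoxc12 at 0.88, and the difference between the genes was not tested. In group 6, Hoxa6, Hoxb6 and Hoxc6 were at -0.27, -0.040 and -0.41, and Hoxc6 alone of them passed.

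The microRNA genes and other noncoding RNAs of the clusters gave 1 call. Of 10 measured, 1 passed between ♂M-3 and ZM-1, against 15.9% of all genes. In the other pairs 0 passed by limma, with 3 at an unadjusted p under 0.05 between ♂M-1 and ZM-1 and 0 between ♂M-1 and ♂M-3. The gene was Mir196a-1 of HoxB, whose sequence is shown above as miR-196a-5p. Its probe set measured 26.2 and 23.0 in ♂M-1, 23.2 and 26.2 in ♂M-3, and 31.8 and 31.6 in ZM-1 (log2 difference -0.35 for ♂M-3, adjusted p = 0.0333). ♂M-1 had nearly the same difference from ZM-1, -0.36, with adjusted p = 0.0667. The probe set reads the transcript of the hairpin locus and not the mature microRNA. Mir196a-2, which yields the same mature miR-196a-5p from HoxC, and Mir196b had differences of 0.076 and -0.24 between ♂M-3 and ZM-1 and did not pass.

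Hox proteins bind DNA with partners of the TALE class, such as Pbx and Meis, and of 10 measured partners 2 were higher in ♂M-3 than in ZM-1 and 0 lower, beside 15.9% of all genes called in that pair. Meis2, a Hox cofactor of limb and brain, measured 123 and 138 in ♂M-1, 219 and 235 in ♂M-3, and 100 and 107 in ZM-1. It was 2.17-fold higher in ♂M-3 than in ZM-1 (adjusted p = 9.55e-05). Pbx3 was 1.27-fold higher in ♂M-3 (adjusted p = 0.0415). With ♂M-1 in place of ♂M-3, Pknox2 was the 1 partner of 10 that passed, 1.48-fold below ZM-1 (adjusted p = 0.00906). In that pair 4.41% of all genes were called. Both Meis2 and Pknox2, 2 of 10, were lower in ♂M-1 than in ♂M-3, where 6.54% of all genes were called. Meis1 did not pass in any pair (adjusted p = 0.424, 0.547 and 0.831).

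Upstream of the clusters, Cdx factors, Wnt and Fgf signals and retinoic acid open Hox transcription from the 3′ end. Of 14 measured regulators, Bmp4 was the single one called between ♂M-3 and ZM-1, 1.38-fold lower in ♂M-3 (adjusted p = 0.00878). Over all genes 15.9% were called there. Wnt3 was the single one of the 14 between ♂M-1 and ♂M-3, where 6.54% of all genes were called. It was 1.24-fold higher in ♂M-1 (adjusted p = 0.0498). Between ♂M-1 and ZM-1, 0 of the regulators passed by limma, with 2 at an unadjusted p under 0.05. Cdx1 and Cdx2, which activate central Hox genes, did not pass in any pair, with adjusted p between 0.353 and 0.831. The retinoic acid pathway had 7 of 18 members called between ♂M-3 and ZM-1, 2 higher and 5 lower, or 38.9% against 15.9% of all genes, with a median of -0.10. The receptor Rarg was lower by a log2 difference of -0.48, the binding protein Crabp1 1.47-fold lower, the retinoic acid target Stra8 1.39-fold lower and the binding protein Crabp2 1.39-fold higher. Crabp1, Dhrs3 and Stra8, 3 of 18, were also lower in ♂M-1 when it was set against ZM-1, and 0 were higher. Over all genes 4.41% were called in that pair. With ♂M-1 set against ♂M-3, 2 of 18 passed, Rarg higher and Rara lower in ♂M-1, beside 6.54% of all genes called.

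The chromatin regulators of the clusters were read as Polycomb and Trithorax lists. Ezh2, the methyltransferase of Polycomb complex PRC2, measured 2693 and 2696 in ♂M-1, 2516 and 2526 in ♂M-3, and 2633 and 2671 in ZM-1, and passed between no lines (adjusted p between 0.536 and 0.898). Its PRC2 partners Eed and Suz12 also passed in no pair (adjusted p between 0.171 and 0.819). Of 30 Polycomb subunits, 2 (6.67%) passed between ♂M-3 and ZM-1, against 15.9% of all genes: Pcgf2, 1.32-fold higher, and Phc1, 1.36-fold lower. In the other pairs 0 passed by limma, with 5 at an unadjusted p under 0.05 between ♂M-1 and ZM-1 and 4 between ♂M-1 and ♂M-3. Of 15 Trithorax-type genes, 3 were higher in ♂M-3 than in ZM-1, where 8.66% of all genes were, and 0 lower: Kdm6b, which removes the Polycomb mark (1.24-fold), Wdr5 (1.23-fold) and Kmt2b (1.21-fold). In both other pairs 0 of 15 passed by limma, with 2 and 6 at an unadjusted p under 0.05.

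Markers of fibroblasts, which express Hox genes of the trunk, were also read. Of 16 fibroblast markers, 11 were lower and 2 higher in ♂M-3 than in ZM-1 (81.3% called, against 15.9% of all genes), with a median of -0.47. With ♂M-1 set against ♂M-3, 9 were higher and 1 lower in ♂M-1 (62.5%, against 6.54% of all genes), with a median of 0.46. In ♂M-1 against ZM-1, 1 was higher and 3 lower, beside 4.41% of all genes called. Dcn, a matrix proteoglycan, was 5.44-fold lower in ♂M-3 than in ZM-1, and Twist2 and Mmp2 were 2.23-fold and 2.19-fold lower. The log2 differences of the 16 ran from -2.44 to 0.70 between ♂M-3 and ZM-1. Between ♂M-1 and ZM-1 they ran from -1.42 to 0.51. The summed level of the 16 markers was 8924 to 9404 in ♂M-3, against 9908 to 10560.0 in ♂M-1 and 10114 to 10339 in ZM-1. Lum alone lay below the lower quartile in each line. Their part in the Hox values was not tested. In a bulk sample, fewer cells of a type and less RNA per cell cannot be told apart.

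Of 11 markers of primitive streak and mesoderm, where Hox genes first come on, 1 was higher in ♂M-3 than in ZM-1, and 0 passed in the other pairs by limma, with 2 at an unadjusted p under 0.05 between ♂M-1 and ZM-1 and 0 between ♂M-1 and ♂M-3. Of 11 neural markers, 2 were lower in ♂M-3 than in ZM-1. In ♂M-1, 1 neural marker lay below ZM-1 and 1 above ♂M-3. Of 9 markers of primitive endoderm, 1 was higher and 2 lower in ♂M-3 than in ZM-1, 2 were higher and 1 lower in ♂M-1 than in ♂M-3, and 0 passed in the remaining pair by limma (2 at an unadjusted p under 0.05). Of 9 markers of trophectoderm, 1 was higher and 1 lower than ZM-1 in ♂M-3 and likewise in ♂M-1, and 0 passed between ♂M-1 and ♂M-3 by limma (1 at an unadjusted p under 0.05). Over all genes the shares called were 15.9% for ♂M-3 and 4.41% for ♂M-1, each against ZM-1, and 6.54% between ♂M-1 and ♂M-3. Of 26 ParaHox and other homeobox genes outside the clusters, 0 passed in any pair by limma. At an unadjusted p under 0.05 there were 3 between ♂M-1 and ZM-1, 1 between ♂M-3 and ZM-1 and 2 between ♂M-1 and ♂M-3.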

How the data were processed

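The deposited table gives 1 linear intensity for each of 35556 probe sets on each of 6 arrays. The authors used GCOS 1.4, per the submitters' processing notes. How probes were summarised, and whether arrays were scaled to each other, is not given in the sources used here. Precision is limited by the number of arrays.

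Symbols came from the platform's probe table: 21789 probe sets had 1 symbol, 1621 several and 12146 none. The probe set with the highest mean stood for its gene, which gave 19938 genes. Values were transformed as log2(intensity + 1). A model with 1 mean for each line was run on the 6 arrays together in limma 3.58.1 (R 4.3.3), with 3 residual and 6.01 prior degrees of freedom. Two-sided p-values were adjusted over all genes by the Benjamini-Hochberg method, with a threshold of 0.05. SE and 95% confidence intervals are those of the moderated fit, SD is over the 2 arrays of a line, and fold changes are on the log2(intensity + 1) scale. The fit was tested on simulated data.

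The members, the lists and the tests were chosen with earlier results of these data known. Every Hox gene past the threshold in a pair was named, with the 3 largest differences per direction and pair, up to 4 called members per list, and a few regulators whatever their test. Hox genes outside this rule are named to complete a cluster or paralog group. Gene order is that of RefSeq on GRCm38.p6.

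Alternatives were quantile normalization, median centring, an added constant of 16, a filter at the 25th percentile, averaging of probe sets, all probe sets, only the lines compared, a replicate block, and leaving out each array.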

Additional observations from a re-analysis of the deposited data

How the results depend on the processing

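The 14 alternatives were not all separate. With 1 probe set per member, averaging of probe sets left the member values unchanged. Leaving out an array of the third line gave the same result as the fit on only the lines compared. The differences of Hoxc12 (both pairs) and of Hoxc13 between ♂M-3 and ZM-1 kept their direction under all 14 alternatives. They passed in each alternative that left out no array. No called gene changed sign, and ♂M-1 against ZM-1 gave 0 Hox genes under each. Cluster medians, which lie near 0 and carry no test, changed sign under several settings. Between ♂M-3 and ZM-1 the count of 5 became 2 over all probe sets and 3 with the replicate block. Over all genes the count went from 3162 to 1296 and 2769 in these settings. Between ♂M-1 and ♂M-3 the count of 3 became 1 over all probe sets, 2 with the replicate block and 1 to 4 with 1 array left out. No pairing by replicate number showed over all genes: deviations of same-numbered arrays correlated between lines at -0.035, 0.067 and -0.10. These correlations could miss a pairing that touched few genes. Median centring moved the cluster medians to 0.044 for HoxC between ♂M-1 and ZM-1, and to 0.0036 for HoxA, 0.10 for HoxC and 0.039 for HoxD between ♂M-3 and ZM-1. Among genes above the 25th percentile they were -0.0057 for HoxC and 0.051 for HoxD between ♂M-3 and ZM-1, and 0.038 for HoxC between ♂M-1 and ♂M-3. With 1 array left out, the ♂M-1 minus ZM-1 medians ran from -0.10 to -0.031 in HoxA, -0.071 to 0.018 in HoxB, -0.12 to 0.11 in HoxC and -0.12 to 0.016 in HoxD. Those of ♂M-3 minus ZM-1 ran from -0.14 to -0.011 in HoxA, -0.096 to 0.023 in HoxB, -0.095 to 0.12 in HoxC and -0.11 to 0.052 in HoxD. Those of ♂M-1 minus ♂M-3 ran from -0.014 to 0.10 in HoxA, -0.035 to 0.12 in HoxB, -0.15 to -0.011 in HoxC and -0.14 to 0.040 in HoxD. The cause of these moves was not tested. Signals were weak, with 6 of 37 Hox genes above the array median in all arrays, and their part in the number of calls was not tested.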

Other observations

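The genes that flank the clusters were read in chromosome order, 4 measured genes on each side, or 8 for each cluster. Between ♂M-3 and ZM-1, 3 of the 32 passed, all higher in ♂M-3, where 8.66% of all genes were called higher. They were Skap2 beside HoxA (log2 difference 0.55, adjusted p = 0.00174), Copz1 beside HoxC (0.46, adjusted p = 0.00560) and Agps beside HoxD (0.59, adjusted p = 0.00180). Between ♂M-1 and ♂M-3, where 6.54% of all genes were called, 3 passed as well. Ttll6 beside HoxB was higher in ♂M-1 (0.63, adjusted p = 0.0126), and Skap2 (-0.42, adjusted p = 0.0118) and Agps (-0.35, adjusted p = 0.0370) were lower. These comparisons share the ♂M-3 arrays. Between ♂M-1 and ZM-1, 0 of 32 passed by limma, with 9 at an unadjusted p under 0.05, against 3981 of all 19938 genes.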
